A study of Mus musculus with 12 samples.

Results

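The rows described here are the small nucleolar RNAs (snoRNAs) and small Cajal body RNAs (scaRNAs) detected in granule cell progenitors (GCPs), the dividing precursors of cerebellar granule neurons, at postnatal day 3 (P3). They are the rows of the deposited P3 table with a snoRNA or scaRNA biotype and a mean of at least 1 FPKM (fragments per kilobase of transcript, scaled to the depth of the library) over the 6 P3 libraries. This gave 93 of 249 such rows, in a table of 31091 genes. By name they divided into 24 Snord rows (box C/D), 12 Snora rows (box H/ACA) and 57 rows with other names, and by biotype into 88 snoRNAs and 5 scaRNAs. The mean level over both genotypes chose the members, so their levels are a description, whereas the difference between the genotypes was not used to choose them.

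The study addressed mechanisms of atrophy in mice deficient in Znhit3, and compared GCPs isolated from wild-type control mice with GCPs from Znhit3 conditional knockout (cKO) mice at P3 and P6. The P3 comparison has 3 control and 3 cKO libraries, and the P6 libraries were not analysed here. The Cre driver of the cKO, the background strain and the number of animals behind each library were not given in the sources used here. Nothing in the labels says that the libraries came from separate animals, so p-values measure the spread between these libraries, which may be technical. In bulk RNA, fewer cells of a type and less RNA per cell cannot be told apart.

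Box C/D snoRNAs guide the 2′-O-methylation of ribosomal and spliceosomal RNA, and box H/ACA snoRNAs guide pseudouridylation; scaRNAs do the same for spliceosomal RNA in the Cajal body. In mammals most are cut from introns of host genes after splicing and become stable only when bound by their core proteins, fibrillarin, Nop56, Nop58 and Snu13 for box C/D, and dyskerin, Gar1, Nhp2 and Nop10 for box H/ACA. Znhit3 is an assembly factor of box C/D particles that works with the R2TP chaperone complex. Mature snoRNAs have no poly(A) tail, and these libraries were made from RNA purified on oligo(dT) beads.

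The sequences of the members on which the results turn show how both large classes are built. Of the 93 members, 80 had a transcript in GENCODE release 21 (GRCm38), matched by gene identifier, and all 80 had the length given in the deposited table. Box C/D members carry a C box near the 5′ end and a D box near the 3′ end, so TGATG in the first 20 bases and CTGA in the last 20 bases were searched on the transcript strand. Both were present in 21 of 23 Snord members, in 0 of 11 Snora members and in 17 of 46 members with other names, against 8 of 4003 GENCODE miRNA, snRNA and misc_RNA transcripts of at most 300 bases. These letters were chosen after stricter ones had been tried. The capitals below mark both motifs in Gm22571 and Gm23969, the most abundant members by FPKM, and in Snord91a, the most abundant Snord member. They also mark the 3 members with both motifs whose level differed between the genotypes, Gm24494, Snord34 and Snord42b. Snord88c, a Snord member that also differed, had no transcript in that release.
Gm22571: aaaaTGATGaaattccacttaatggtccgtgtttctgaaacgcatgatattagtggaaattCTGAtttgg
Gm23969: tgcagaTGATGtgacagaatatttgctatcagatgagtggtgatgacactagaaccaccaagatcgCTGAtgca
Snord91a: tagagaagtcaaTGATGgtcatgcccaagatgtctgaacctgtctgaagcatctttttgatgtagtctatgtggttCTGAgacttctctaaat
Gm24494: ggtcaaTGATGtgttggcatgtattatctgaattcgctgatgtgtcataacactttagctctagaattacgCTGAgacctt
Snord34: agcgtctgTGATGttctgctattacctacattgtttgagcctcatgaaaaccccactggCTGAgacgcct
Snord42b: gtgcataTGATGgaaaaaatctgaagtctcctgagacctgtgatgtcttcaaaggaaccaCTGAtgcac
On GRCm38, Gm22571 lies at chr9:64175873-64175942 (+ strand) within Rpl4, Gm23969 at chr2:26911261-26911334 (+ strand) within Rpl7a, and Snord91a at chr11:74905424-74905516 (+ strand) within Tsr1. Gm24494 lies at chr3:153911610-153911690 (- strand) within Rabggtb, Snord34 at chr7:45126601-45126670 (- strand) within Rpl13a, and Snord42b at chr11:78183056-78183124 (- strand) within Rpl23a. All but Snord42b lie in an intron of every annotated host transcript that spans them, whereas Snord42b overlaps an exon of a retained-intron transcript of Rpl23a.

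Box H/ACA members end in a short tail after an ACA trinucleotide, and ACA followed by 2 to 4 bases at the 3′ end was searched on the transcript strand. It was present in 11 of 11 Snora members, in 2 of 23 Snord members and in 25 of 46 members with other names, against 242 (6.05%) of the 4003 other small RNA transcripts. A match describes the letters only. The capitals below mark that ACA in the 6 members of this kind whose level differed between the genotypes.
Snora41: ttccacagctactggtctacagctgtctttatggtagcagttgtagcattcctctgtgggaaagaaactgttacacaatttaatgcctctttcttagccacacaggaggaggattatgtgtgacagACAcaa
Gm22728: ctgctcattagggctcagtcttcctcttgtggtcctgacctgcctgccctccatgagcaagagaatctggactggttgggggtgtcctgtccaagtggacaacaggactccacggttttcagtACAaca
Gm24616: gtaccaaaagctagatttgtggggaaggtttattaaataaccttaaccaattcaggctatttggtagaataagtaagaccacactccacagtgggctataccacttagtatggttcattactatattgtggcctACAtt
Gm25492: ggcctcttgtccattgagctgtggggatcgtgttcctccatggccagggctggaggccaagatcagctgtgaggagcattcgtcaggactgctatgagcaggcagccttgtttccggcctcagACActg
Scarna8: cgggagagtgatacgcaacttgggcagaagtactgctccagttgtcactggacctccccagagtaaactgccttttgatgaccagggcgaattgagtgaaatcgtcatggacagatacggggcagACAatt
Snora47: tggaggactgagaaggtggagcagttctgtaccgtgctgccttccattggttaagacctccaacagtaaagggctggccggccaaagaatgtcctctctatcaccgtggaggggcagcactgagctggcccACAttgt
On GRCm38, Snora41 lies at chr1:63179004-63179135 (+ strand) in an intron of Eef1b2, Gm22728 at chr5:92056064-92056192 (- strand) in an intron of G3bp2, and Gm24616 at chr16:23111617-23111755 (+ strand) within Eif4a2, where it overlaps an exon of a retained-intron transcript. Gm25492 lies at chr5:135053988-135054116 (- strand) in an intron of Bud23, Scarna8 at chr4:86586453-86586583 (- strand) in an intron of Haus6, and Snora47 at chr13:95330600-95330737 (+ strand) in an intron of Zbed3. For 2 further members that differed, Snord88c and Gm56109, no sequence is shown.

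The members were at the low end of what these libraries measured. The FPKM values multiplied back by gene length gave whole reads in every library, and the libraries held 29120041 to 52961751 reads. The 93 members together took 1261 to 2233 reads per library, which is 0.00407% to 0.00461% of all reads. Single members had 0 to 95 reads in a library, with a median over members of 12.0 reads per library; 35 members averaged under 10 reads, and 4 had a library with 0 reads, which allows up to 3 reads there, or 1.03 FPKM for a row of 100 bases in the shallowest library. Their lengths ran from 64 to 265 bases (median 110.0), so all 93 were shorter than the average cDNA insert of 300 bases given in the labels. Whether the reads came from mature snoRNA, from host introns or from longer precursors was not tested.

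The most abundant member was Gm22571, in Rpl4, which encodes a large-subunit ribosomal protein. Control libraries had 23.9, 23.5 and 24.8 FPKM of it and cKO libraries 21.3, 25.9 and 25.5 FPKM, from 52 to 92 reads. The groups overlapped, with a difference of 0.0067 ± 0.073 (log2(FPKM + 1), cKO minus control, SE). Gm23969, in Rpl7a, followed at 25.6, 17.6 and 24.2 FPKM in control and 18.4, 27.2 and 13.9 FPKM in cKO libraries, from 30 to 95 reads. Here the replicates of one genotype lay further apart than the genotype means (22.5 ± 4.27 and 19.8 ± 6.74 FPKM, SD, n = 3 each).

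Among the Snord members the highest was Snord91a, in Tsr1, a gene for a factor of small-subunit ribosome maturation. It had 14.8, 16.0 and 13.6 FPKM in control and 15.5, 17.9 and 15.5 FPKM in cKO libraries, from 42 to 67 reads. The groups overlapped and the limma test gave a difference of 0.13 ± 0.07 (adjusted p = 0.245). Snord58b, Snord73a and Snord72 followed with means over all 6 libraries of 10.2 to 11.8 FPKM.
Snord73a, in the ribosomal protein gene Rps3a1, had 16.6, 9.57 and 12.2 FPKM in control and 7.06, 11.3 and 9.09 FPKM in cKO libraries, groups that overlapped (difference -0.43 ± 0.20, adjusted p = 0.162).

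Among the Snora members the highest was Snora31, in Tpt1, the gene for the translationally controlled tumour protein. It had 13.0, 20.5 and 9.88 FPKM in control and 8.82, 13.2 and 11.9 FPKM in cKO libraries, from 43 to 86 reads. Control replicate 2 lay above all other libraries, the groups overlapped, and the difference was -0.29 ± 0.24 (limma, adjusted p = 0.409). Snora41 came next at 8.77 FPKM over the 6 libraries, then Snora57 at 4.92, Snora69 at 3.14 and Snora47 at 2.51 FPKM.

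Of the members with other names, Gm23301 (14.6 FPKM), Gm24494 (13.1 FPKM) and AF357399 (11.2 FPKM) followed Gm22571 and Gm23969. Gm23301, in the ribosomal protein gene Rpl17, had 14.4, 10.5 and 13.7 FPKM in control and 16.8, 14.9 and 17.4 FPKM in cKO libraries. The groups did not overlap, and the difference of 0.34 ± 0.11 missed the threshold (limma, adjusted p = 0.0648). At the threshold of 1 FPKM, the members just inside were Snora62 (1.03 FPKM), Gm25970 (1.03) and Snora23 (1.06), and the rows just outside were the scaRNA Gm22009 (0.999), Gm25776 (0.961) and Gm24907 (0.928).

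The targeted gene checked the labels. Znhit3 itself had 9.15, 8.62 and 8.58 FPKM in control and 4.03, 4.01 and 4.57 FPKM in cKO libraries, so every cKO library lay below every control library. The cKO mean was 47.8% of the control mean (difference -0.91 ± 0.06, limma adjusted p = 2.4e-04). By exact permutation of the libraries (two-sided) p was 0.1, and 3 against 3 libraries allow none smaller.

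Between the genotypes, 11 of the 93 members (11.8%) passed the limma test (adjusted p under 0.05), of which 6 were higher and 5 lower in cKO GCPs. Among all 13538 genes tested, those with a mean of at least 1 FPKM, 2590 (19.1%) passed, 1813 of them higher. Of 182 other tested rows no longer than the longest member, 12 (6.59%) passed. In this fit the members' share lay below that of the whole table and above that of other short rows, and the difference between the shares was not tested. The 11 came from 3 of 24 Snord members (2 higher, 1 lower), 2 of 12 Snora members (1 higher, 1 lower) and 6 of 57 members with other names (3 higher, 3 lower). The libraries of the genotypes did not overlap in 15 members (7 higher, 8 lower; 16.1%), against 40.5% of all tested genes. A further 4 of these 15, Gm23301, Gm22748, Gm25777 and Snora20, were not called. At an unadjusted p under 0.05 there were 17 members, a count that has no share of all tested genes beside it here. In 6 members only one genotype's mean reached 1 FPKM, and 2 of these were called (Gm24616 and Scarna8); of the other 87, 9 (10.3%) were called.

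**Figure D1:**
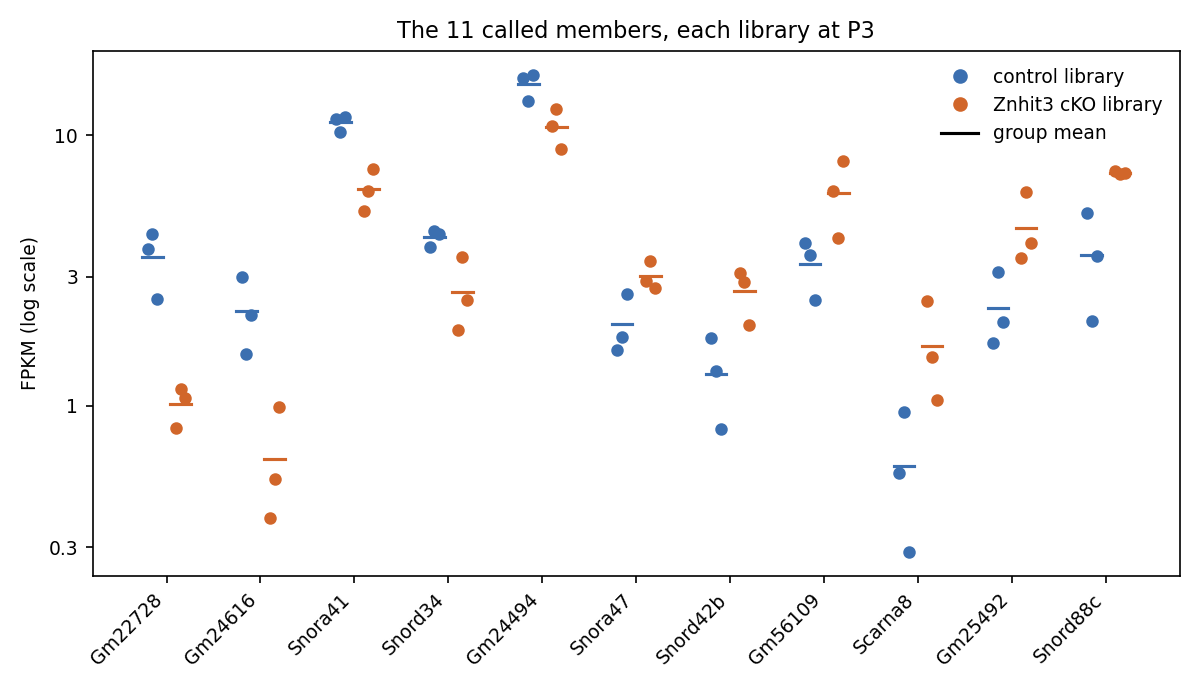
FPKM (log axis) of the 11 called members in each of the 3 control and 3 cKO libraries at P3, ordered by difference; points are libraries and lines are group means. The genotypes do not overlap in any of the 11, Gm22728 and Gm24616 show the largest decreases on the log2(FPKM + 1) scale, and Scarna8 lies under 1 FPKM in all control libraries.

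Of the 5 members that were lower in cKO GCPs, 3 carried the H/ACA tail motif and 2 the C and D motifs. On the log2(FPKM + 1) scale the largest decrease was in the scaRNA Gm22728. It lies in an intron of G3bp2, a gene for a stress granule protein. Gm22728 had 3.81, 4.32 and 2.49 FPKM (20, 18 and 17 reads) in control and 0.827, 1.15 and 1.06 FPKM (4, 6 and 4 reads) in cKO libraries. All cKO libraries lay far under all control libraries, a difference of -1.15 ± 0.15 (limma, adjusted p = 0.0028).

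Snora41, in an intron of the translation elongation factor gene Eef1b2, was the called member with the most reads. It had 11.5, 10.3 and 11.7 FPKM (62, 44 and 82 reads) in control and 5.25, 6.21 and 7.54 FPKM (26, 33 and 29 reads) in cKO libraries. The control libraries were tightly grouped above the cKO libraries (-0.74 ± 0.11, adjusted p = 0.0040). The ratio of depth-scaled reads, cKO over control, had an exact 95% interval of 0.42 to 0.71. Intervals of this kind cover counting error only, and reads without molecular identifiers are not independent molecules. Of the 113 stretches of 20 bases in Snora41, 66 also occur in Gm23723, a snoRNA row listed with 0 to 2 reads per library, so reads could be divided between these copies.

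Gm24616, in the translation initiation factor gene Eif4a2, had 3.00, 1.56 and 2.17 FPKM (17, 7 and 16 reads) in control and 0.384, 0.536 and 0.988 FPKM (2, 3 and 4 reads) in cKO libraries. It met the 1 FPKM threshold through the control group alone, so it had to differ in some measure (-0.98 ± 0.19, adjusted p = 0.011). Of its 120 stretches of 20 bases, 40 also occur in other short transcripts, 24 of them in Gm25588, which had 0 to 6 reads per library. Gm25582 and Gm24460 share 18 and 16 of the stretches and are not among the listed rows. Both box C/D members that fell had smaller differences. Gm24494, in Rabggtb, the gene of an enzyme subunit that lipidates Rab proteins, had 16.4, 13.4 and 16.8 FPKM in control and 10.9, 12.6 and 8.90 FPKM in cKO libraries (-0.49 ± 0.12, adjusted p = 0.029). Snord34, in Rpl13a, which guides methylation of the large-subunit ribosomal RNA, had 3.86, 4.43 and 4.32 FPKM against 1.904, 3.55 and 2.45 FPKM (-0.54 ± 0.15, adjusted p = 0.039). Snord34 rested on 5 to 16 reads per library, and its counting interval for the ratio, 0.35 to 1.13, included 1.

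Of the 6 members that were higher in cKO GCPs, Snord88c had the largest difference on the log2(FPKM + 1) scale. In log2 of depth-scaled reads (limma-voom) the difference was 1.05 for Snord88c and larger, 1.51, for Scarna8. Snord88c lies in 2410002F23Rik and had 5.19, 2.07 and 3.57 FPKM (19, 6 and 17 reads) in control and 7.40, 7.17 and 7.25 FPKM (25, 26 and 19 reads) in cKO libraries. The cKO libraries were close together above a spread control group (0.90 ± 0.21, adjusted p = 0.024). Snord42b, in Rpl23a, a guide for the small-subunit ribosomal RNA, had 1.78, 1.35 and 0.821 FPKM against 3.09, 2.88 and 1.99 FPKM, from 3 to 8 reads per library (0.67 ± 0.17, adjusted p = 0.033). Its counting interval of 0.98 to 4.95 included 1. Snora47, in Zbed3, an Axin-binding zinc finger gene, had 1.60, 1.80 and 2.60 FPKM against 2.90, 3.42 and 2.74 FPKM (0.43 ± 0.13, adjusted p = 0.048). For Snora47 the interval was 0.93 to 2.35, and the highest control library came within 0.14 FPKM of the lowest cKO library.

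Both scaRNAs that rose carry the H/ACA tail motif. Gm25492, in Bud23, the gene of a ribosomal RNA methyltransferase, had 1.71, 3.12 and 2.05 FPKM in control and 3.51, 6.16 and 3.99 FPKM in cKO libraries (0.75 ± 0.20, adjusted p = 0.036). Scarna8, in Haus6, the gene of an augmin subunit that nucleates spindle microtubules, had 0.562, 0.946 and 0.288 FPKM (3, 4 and 2 reads) against 2.44, 1.52 and 1.05 FPKM (12, 8 and 4 reads). It reached 1 FPKM through the cKO group alone (0.73 ± 0.21, adjusted p = 0.047). Gm56109 had 3.99, 3.62 and 2.45 FPKM against 6.23, 4.19 and 8.03 FPKM (0.70 ± 0.21, adjusted p = 0.0498). No gene contained Gm56109 on its own strand, and Snrnp70, a spliceosomal protein gene, spans it on the other strand. The library preparation marked strand, and whether counting used it is not given in the sources used here. The remaining scaRNA members did not pass the test: Gm24644 had 1.53 ± 0.525 and 1.54 ± 0.0628 FPKM, and Scarna6 1.34 ± 0.322 and 1.20 ± 0.0961 FPKM (control and cKO, SD, n = 3 each), with adjusted p of 0.914 and 0.633.

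The 11 calls differed in how well they held. Gm22728 was called in all 17 alternative analyses that could be run for it and Snora41 in all 18, and Gm24616 in 15 of 17. When one library at a time was left out, these 3 stayed called each time, whereas the other 8 lost their call in 4 or 5 of the 6 leave-outs, and each of the 6 libraries, left out, ended at least 1 call. Their highest adjusted p in a leave-out ran from 0.068 for Snord88c to 0.141 for Snora47. The number of called members was 8, 6 and 7 without control replicate 1, 2 and 3, and 5, 9 and 6 without cKO replicate 1, 2 and 3. The share of all tested genes called in the same fits was 14.7%, 9.83% and 11.0%, and 16.2%, 8.92% and 11.5%. Without cKO replicate 2 the 9 of 93 members were therefore slightly above the share of all genes, and not below it. A test that models the recovered reads, limma-voom, called 3 members, 0 higher and 3 lower, against 27.5% of all 13538 genes. Those 3 were Gm22728 (-1.62 ± 0.47 in log2 of depth-scaled reads, adjusted p = 0.015), Gm24616 (-1.75 ± 0.53, adjusted p = 0.019) and Snora41 (-0.85 ± 0.28, adjusted p = 0.028). Gm24616 met the 1 FPKM threshold through the control group alone, so its repeated calls add no support. Under quantile normalization 1 member was higher and 7 were lower, against 14.1% of all genes called. With no filter on low values 2 members passed (all genes 4.09%), and with TPM scaling 12 passed (all genes 22.1%).

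In the authors' deposited table, 21 of the 93 members had an adjusted p under 1, and 0 of these had one under 0.05, whereas 3695 (23.1%) of 16021 such genes did. The lowest adjusted p among members in the authors' deposited table, 0.0599, belonged to Snora41. Every member with a mean of at least 10 FPKM was among those 21, and no scaRNA was. Members outside the 21 cannot be read as tested without a difference. Gm22728 was outside, with a deposited log2 fold change of -1.85 and an unadjusted p of 0.0140 in the authors' test. Snora41, among the 21, had an unadjusted p of 0.0147 there.

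As a group the members had a median near 0. The median difference was 0.0066 over the 93 members, 48 above 0 and 45 below, and 0.032 over all tested genes. It was 0.0069 for the 24 Snord members, which ran from -0.54 to 1.03, and 0.052 for the 12 Snora members, which ran from -0.74 to 0.43. Grouped by sequence, the 38 members with the C and D motifs had a median of -0.050 (1 called higher, 2 lower), and the 36 with the ACA motif alone had a median of 0.012 (3 higher, 3 lower). The median standard error of a member was 0.22, against 0.063 for all tested genes. For the typical member, the counting interval of the cKO to control ratio spanned 2.73-fold, and it included 1 for 75 of the 93.

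**Figure D2:**
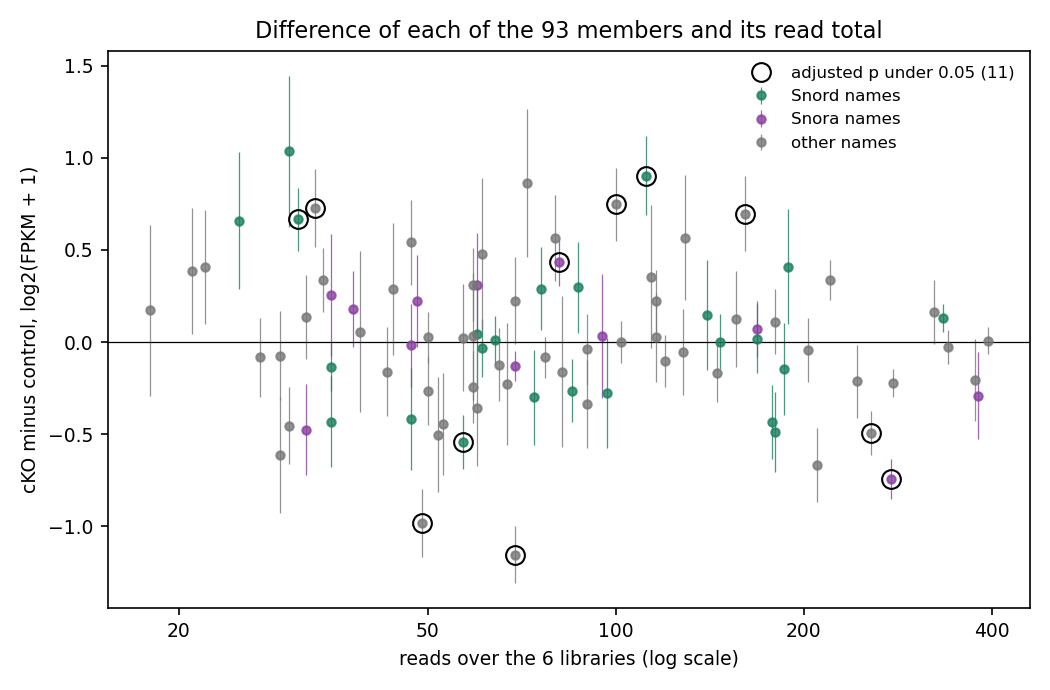
Difference between the genotypes (log2(FPKM + 1), cKO minus control, bars are standard errors) of each of the 93 members against its reads over the 6 libraries (log axis), coloured by class. Ringed members passed the limma test; points scatter widely on both sides of 0 at low reads, and the called members with the most reads, Snora41 and Gm24494, lie below 0.

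Summed reads, which give more weight to members with more reads, were close between the genotypes for all members and for Snord members. For Snora members the mean summed level was lower in cKO libraries, whereas their median difference, 0.052, was above 0. In RPM, reads scaled to the depth of the library, all 93 together had 46.1, 42.5 and 42.2 in control and 40.7, 44.3 and 43.3 in cKO libraries, groups that overlapped with a cKO mean at 98.1% of the control mean. The 24 Snord members summed to 11.1, 10.7 and 10.4 RPM in control and 10.8, 10.6 and 10.9 in cKO libraries, a cKO mean of 101% of control with groups that overlapped. The 12 Snora members summed to 6.14, 6.44 and 5.78 RPM in control and 4.90, 5.09 and 6.04 in cKO libraries. Those groups overlapped at cKO replicate 3, with a cKO mean of 87.3% of control that was 97.1% without Snora41.

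**Figure D3:**
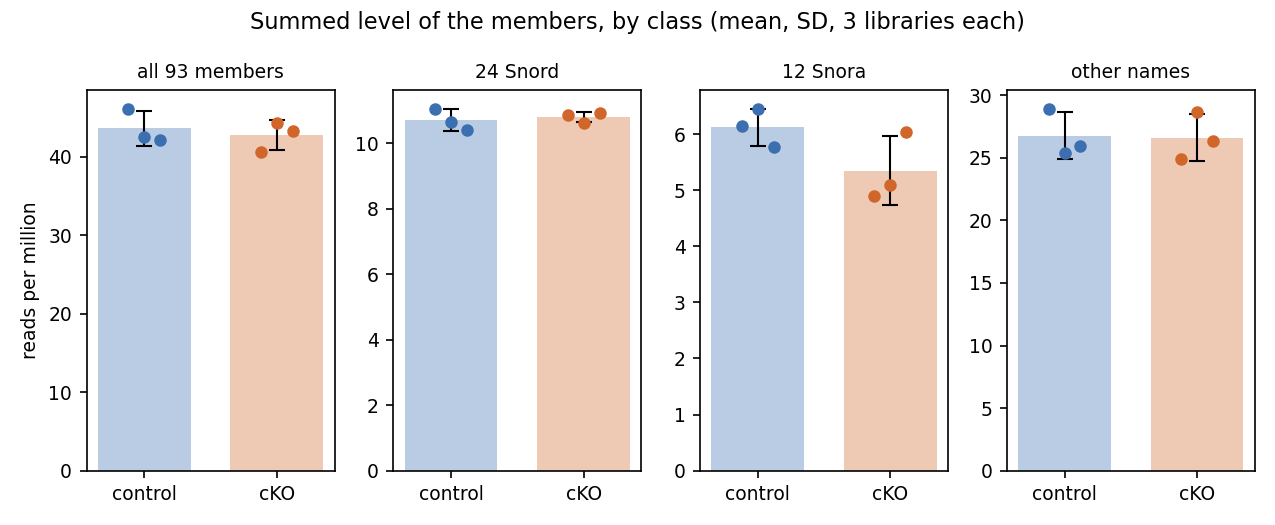
RPM summed over all members and over each name class; points are libraries, bars means and error bars SD (n = 3 control, 3 cKO). Control and cKO libraries overlap in every panel, and the Snora panel has the lowest cKO to control ratio, 87.3%.

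Replicates differed by more than counting alone gives. Within a genotype, the chi-square of member reads against depth was 2.11 per degree of freedom in control and 1.62 in cKO libraries, where counting error alone gives about 1. Snord72, in Rpl37, showed such a spread, with 13.6, 8.03 and 4.90 FPKM in control and 13.5, 12.9 and 8.06 FPKM in cKO libraries. Its groups overlapped (0.41 ± 0.31, adjusted p = 0.382). Snora69, in the X-linked Rpl39, had 6.19 FPKM in control replicate 1 against 1.66 to 3.67 FPKM in the other libraries.

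Host genes set the members in context, since intronic snoRNAs share their primary transcript. A gene on the same strand contained 85 of the 93 members, and 7 of the other 8 lay opposite a gene on the other strand. The 85 members lay in 65 host genes, 63 of them protein coding and 2 long non-coding. Ribosomal protein genes made up 15 hosts with 26 members. Translation factor genes, counted together with Tpt1, made up 5 hosts with 5 members. Among hosts were also Nop56 and Nop58, which encode box C/D core proteins and hold Snord110, and Snord70 and Gm26287. In GENCODE, 72 members lay in an intron of every host transcript that spans them, and 3 overlapped an exon, Snord42b, Gm24616 and Snora15.

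Members were mostly far below their hosts. The host level ran from 0.224 to 976 FPKM with a median of 54.1 FPKM, and the typical member reached 4.96% of its host's FPKM. Per length, 57 of 85 members were under 10% of the host, and 4 were above it. Of these 4, Snord91a was at 181% of Tsr1 (8.61 FPKM), and Snord7, Snord89 and Snora30 lay in hosts of at most 2.40 FPKM. Snora30 was contained in 2 genes, of which the smaller, Gm42715 (0.224 FPKM), was taken as host, and the other was not compared. The relation between log2 levels was loose across the 85 members (Pearson r = 0.30, Spearman rho = 0.25), which share libraries and, in part, hosts.

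**Figure D4:**
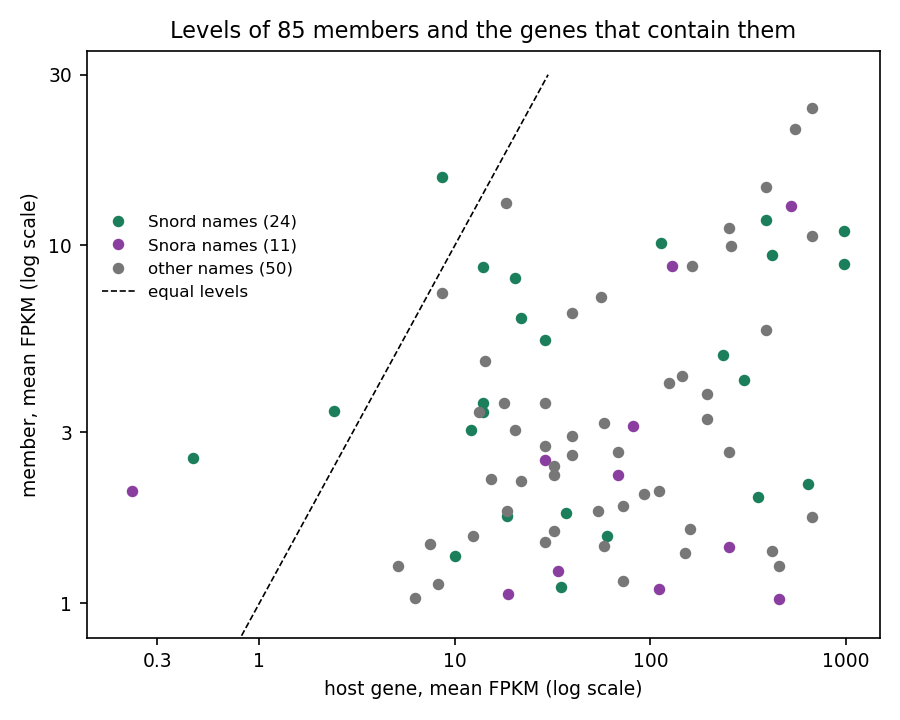
Mean FPKM over the 6 libraries of 85 members (vertical, log axis) and of the gene that contains each on the same strand (horizontal, log axis), coloured by name class; the dashed line marks equal levels. Only 4 points lie above the line, and hosts above 100 FPKM hold members from about 1 FPKM up to the 24.1 FPKM of Gm22571.

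Members of 1 host could differ widely from each other. In 17 hosts with several members (37 members), the highest and lowest differed by 1.03-fold in Nop58 to 13.9-fold in Rpl4. Rpl4, at 673 FPKM, held Gm22571 at 24.1 FPKM, Gm23136 at 10.6 FPKM and Gm23344 at 1.74 FPKM. Rpl17 held Gm23301 (14.6 FPKM), Snord58b (11.8 FPKM) and Gm26202 (5.81 FPKM), and Rpl13a held Snord32a (8.70 FPKM), Snord35a (3.62) and Snord34 (3.42). Snord73a and Snord73b in Rps3a1 were close, at 11.0 and 8.87 FPKM.

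Other shared hosts mostly held members of lower level. Wdr43 held Snord53 (8.10 FPKM) and Gm22858 (3.05), Ubap2 held Gm24837 (3.63) and Gm22888 (1.48), and Tsr1 held Snord91a (15.5) and Gm22771 (7.36). In Cct6a, a chaperonin subunit gene, Gm23245 and Snora15 had 2.05 and 1.10 FPKM; in Rpl23, Gm54825 and Snora21 had 2.64 and 1.43 FPKM. Hspa9, Rpsa, Rpl5, Prrc2b and Zbed3 each held a pair that differed by 1.10-fold to 1.62-fold. Called members lay in 2 of the 17 shared hosts. In Rpl13a, Snord34 passed the test and Snord32a and Snord35a did not, and in Zbed3, Snora47 passed and Gm22661 did not (0.57 ± 0.23, adjusted p = 0.123).

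Differences between the genotypes in members and in hosts showed little correlation, within the error of the members. Of the 63 hosts tested, 9 passed (3 higher, 6 lower; 14.3%), with a median host difference of -0.066. Over the 83 members with a tested host, 52 had the sign of their host, and the correlation of the differences was r = 0.039 (Spearman rho = 0.056). The median standard error of a member, 0.22, was large beside host differences of -0.31 to 0.20, so a relation could be missed. Of the 10 called members with a tested host, 1 had a called host. That member was Snord42b, at 0.67 ± 0.17, whose host Rpl23a fell from 394 ± 23.5 to 319 ± 19.9 FPKM (-0.30 ± 0.07, adjusted p = 0.018). The difference between Snord42b and Rpl23a was not tested.

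None of the hosts of the 5 members that fell passed the limma test. Eef1b2 had 135 ± 18.9 FPKM in control and 124 ± 11.7 FPKM in cKO libraries (adjusted p = 0.436), beside the decrease of Snora41. G3bp2 had 32.2 ± 0.783 and 32.2 ± 0.779 FPKM (adjusted p = 0.993), beside that of Gm22728. Eif4a2, the host of Gm24616, had 56.2 ± 0.735 and 59.5 ± 1.74 FPKM (adjusted p = 0.187). Rabggtb had 18.5 ± 1.64 and 17.9 ± 0.287 FPKM (adjusted p = 0.675), and Rpl13a 14.5 ± 0.202 and 13.5 ± 0.327 FPKM (adjusted p = 0.126). A p above the threshold does not show that a host was the same in both genotypes.

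Ribosomal protein genes were the largest group of hosts. All 15 had a difference below 0 on the deposited scale, with a median of -0.17, and 5 passed the test, among them Rpl17, Rpl23, Rpl23a and Rps16. The 26 members in them had a median of 0.00067, 13 above 0 and 13 below, with 1 called higher (Snord42b) and 1 lower (Snord34). The scaling moved both medians: with quantile normalization 12 of the 15 hosts were below 0, and the medians were -0.063 for hosts and -0.072 for members, whereas with TPM scaling 14 were below 0 and the medians were -0.13 and 0.040. Of the other called hosts, Cks2 fell, and Prpf39, Prrc2b and Snx5 rose. Their members were not called: Gm22806 in Cks2 had 2.97 ± 0.817 FPKM in control and 5.28 ± 2.72 FPKM in cKO libraries.

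**Figure D5:**
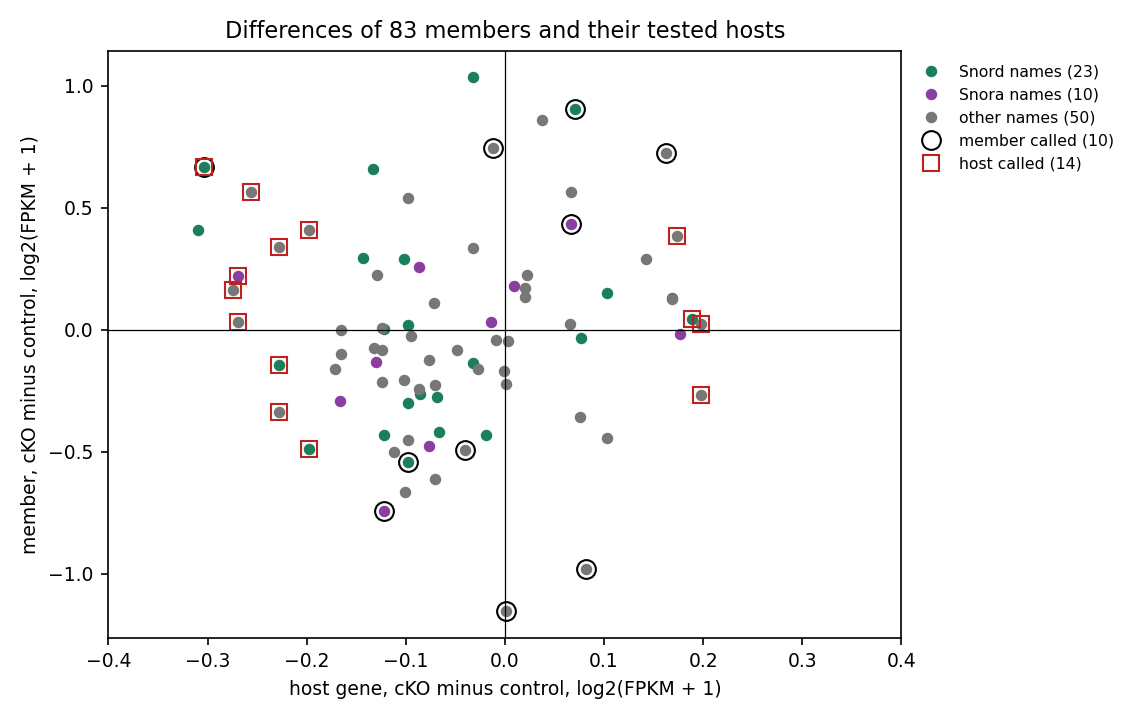
Difference between the genotypes (log2(FPKM + 1), cKO minus control) of 83 members and of their tested hosts, coloured by name class; black rings mark called members and red squares members whose host was called. Hosts span about -0.3 to 0.2 and members -1.15 to 1.03, with no visible common slope, and the members' errors could hide one.

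The lists of genes that make and bind snoRNAs each held 0 or 1 called gene, where 19.1% of all tested genes were called. The lists had 4 to 12 tested genes each, and their counts were not tested against that share. Of the 4 box C/D core protein genes, Snu13, the protein that first binds the C and D boxes, fell from 53.5 ± 1.15 to 47.8 ± 2.22 FPKM (-0.16 ± 0.05, adjusted p = 0.049) and the other 3 did not pass, with Nop56 the most abundant at 62.6 ± 1.76 and 57.02 ± 2.71 FPKM (adjusted p = 0.087). The list's median was -0.12. Of the 4 box H/ACA core genes 0 passed (median -0.15), and Nhp2, which binds the H/ACA hairpins, had 63.7 ± 3.75 and 55.3 ± 3.14 FPKM (adjusted p = 0.0503). Among 9 tested box C/D assembly factor genes only Znhit3 passed. The most abundant was the chaperone gene Hsp90ab1 at 1007 ± 28.1 and 913 ± 41.5 FPKM (adjusted p = 0.124). The lists of H/ACA assembly factors (0 of 4, Ruvbl1 the most abundant), trafficking factors (0 of 8, Xpo1), end processing and debranching enzymes (0 of 12, Xrn2) and poly(A) tail and decay factors (0 of 8, Pabpc1) had no called gene. Their medians ran from -0.061 to 0.049.

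Non-coding snoRNA host genes gave 3 calls among 18 tested genes. Snhg5 fell from 18.6 ± 0.711 to 14.0 ± 0.553 FPKM (-0.38 ± 0.05, adjusted p = 0.0024) and Snhg20 from 6.71 ± 0.873 to 5.10 ± 0.177 FPKM (-0.33 ± 0.08, adjusted p = 0.030). Snhg15 rose from 2.80 ± 0.341 to 3.597 ± 0.175 FPKM (0.28 ± 0.08, adjusted p = 0.040), and the most abundant, Gas5, had 24.8 ± 1.249 and 22.3 ± 1.02 FPKM (adjusted p = 0.0903). No member lay in Snhg5, Snhg15, Snhg20 or Gas5. The median of the list was -0.082.

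Markers of cell types moved between the genotypes, and their part in the members' differences was not tested. Granule progenitor markers were present in all libraries, and 4 of 9 were lower in cKO GCPs, none higher. Those 4 were Barhl1, Pax6, Mfap4 and Neurod1, whereas Atoh1, Gli1, Mycn, Zic1 and Zic2 did not pass the test. The sum of the 9 was 1229 to 1332 FPKM in control and 995 to 1026 FPKM in cKO libraries. Of the endothelial markers 7 of 7 were higher (118 to 129 against 211 to 228 FPKM), and of the microglial 6 of 7 (179 to 184 against 224 to 253 FPKM). Of the oligodendrocyte lineage markers 6 of 7 were higher (102 to 109 against 128 to 140.5 FPKM), and of the GABAergic interneuron markers 5 of 6, with 1 lower (78.5 to 85.4 against 100.2 to 108 FPKM). All 6 choroid plexus markers were lower (1344 to 1433 against 628 to 708 FPKM). Ttr, with means of 1370 FPKM in control and 665 FPKM in cKO libraries, made up most of those sums. None of these markers was at 0.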

How the data were processed

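Members and lists were chosen with earlier results of these data known. RNA was purified on oligo(dT) and sequenced as 150-base read pairs, per the labels' protocols. The authors deposited FPKM, gene lengths, log2 fold changes and p-values; HISAT2 2.2.1, StringTie 2.1.6, cutadapt 1.9, DESeq2, edgeR and mm10 are named without roles, per the submitters' processing notes. The authors' mean signal per gene, in the deposited table, was not used. FPKM times length gave whole reads. limma 3.58.1 (R 4.3.3) was fitted with an intensity trend on log2(FPKM + 1) for 13538 genes averaging 1 FPKM or more, with Benjamini-Hochberg adjustment over all. Differences are on that scale, which understates those of low rows. Count tests were set aside as the main test because the deposited unit is FPKM, although whole reads could be recovered. The trend follows FPKM, so short members shared it with longer genes of the same FPKM and more reads. The alternative on recovered reads, limma-voom, called 3 members, 0 of them higher. Ratios of summed reads have exact 95% Clopper-Pearson intervals, conditional on depth. The host is the smallest protein-coding or long non-coding gene of the table that contains the row on its strand. By rule, named members were the called ones, the 5 highest by FPKM and by reads in each class, all scaRNAs, those next to the threshold, and those sharing a host. Gm22806, Gm25777 and Snora20 were named after their values were seen. Snord7, Snord89, Snora30, Snord110 and Gm24888 are also named outside the rule. Other settings varied scaling, filters, weights, pseudocount and libraries. The fit was also run on simulated reads whose spread at low reads was close to counting error alone. Member reads spread more than that, so the simulation lends no support to calls on members with few reads. Sequences come from GENCODE release 21, with Python 3.11.15, pandas 2.3.3 and scipy 1.17.1; those on chromosome 18 are not shown. Some named items are not reported here.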

Additional observations from a re-analysis of the deposited data

How the results depend on the processing

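The 11 called members (19.1% of all tested genes were called) became 10 with a pseudocount of 0.1 (all genes 19.0%), 8 with a 0.5 FPKM filter (16.3%), 10 with upper quartile scaling (18.7%), 8 with quantile normalization (14.1%), 12 with TPM scaling (22.1%), 8 without the trend (18.9%) and 11 with array weights (27.5%). They became 2 (0 higher, 2 lower) on log2(RPM + 0.1), where 27.5% of all genes were called, and 2 with no filter on low values, where 4.09% were. With at least 10 reads in both group means 7 of 48 were called (all genes 20.5%), and with limma-voom 3 (27.5%). Of members with a mean of at least 5 FPKM, 3 of 25 were called, and of those with at least 10 reads in every library, 3 of 31. Both counts are from the main fit, in which 19.1% of all tested genes were called. Leaving out a library gave 5 to 9 calls, with 8.92% to 16.2% of all genes. The median difference of all members ran from -0.071 to 0.11 over the leave-outs, that of Snord members from -0.069 to 0.11 and that of Snora members from -0.039 to 0.11. For Snora members it was -0.11 with array weights, -0.52 for the 2 members with a mean of at least 5 FPKM and -0.29 for the 3 members with at least 10 reads in every library. Znhit3 stayed called in every setting run. Over the 58 genes and members named by the rule, no result called in the main fit, the alternative or both changed direction. Directions of results called in neither were not compared. Among members named by the rule 80 alternative results lost a call and 12 gained one, in 9 members. The cause of these changes was not tested.

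Replicate numbers only name the libraries: the deviations of same-numbered libraries had correlations of -0.024, 0.036 and -0.097. With the replicate block 10 of 93 members were called, 6 higher and 4 lower, close to the 11.4% of all genes called in that fit. Depth is one limit: 62 of the 93 had under 10 reads in at least 1 library.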

Other observations

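Other small RNA rows of the same table gave the following values at P3. Of 76 tested miRNA rows, 4 were higher and 1 lower in cKO GCPs (median difference 0.087). Mir135a-2 rose from 3.56 ± 0.321 to 7.37 ± 1.57 FPKM (SD, n = 3 each; limma, adjusted p = 0.0038) and Mir99a fell from 6.67 ± 1.82 to 1.63 ± 1.97 FPKM (adjusted p = 0.037). Of 33 tested snRNA rows, 1 was higher and 1 lower (median 0.086), and of 7 misc_RNA rows 2 were higher, among them Rn7sk, the RNA that holds back the elongation factor P-TEFb, at 4.04 ± 1.70 and 9.14 ± 0.442 FPKM (adjusted p = 0.012). These rows were named after their values were seen.

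Sequence sharing bears on which rows can be counted apart. Of the 80 members with a sequence, 46 shared no stretch of 20 bases with another GENCODE transcript of at most 300 bases, and 9 shared more than 50% of theirs. The highest share, 91.0%, was in Gm24888, followed by Gm22806 at 80.3% and Snord58b at 76.6%. Gm22728 shared none.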
